A study of Mus musculus with 16 samples.

Results

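The RNA of 10 mouse genes that control entry into the cell cycle was followed through organoids of the proximal and distal colon: the 7 genes for inhibitors of cyclin-dependent kinases (CDKs), Cdkn1a, Cdkn1b, Cdkn1c, Cdkn2a, Cdkn2b, Cdkn2c and Cdkn2d, and the 3 D cyclin genes Ccnd1, Ccnd2 and Ccnd3. These genes were taken by name out of 54123 genes for which estimated reads were summed in each library. All 10 passed the filter on low counts and were tested with 15289 genes in all. When the growth factors were withdrawn, the RNA of p21, p57 and p15 rose and that of p18 fell in the Scramble-sgRNA organoids of both regions, and cyclin D1 fell in distal organoids, while its call in proximal Scramble-sgRNA organoids was lost with 3 of the 4 libraries left out in turn. In proximal Cdx2-sgRNA organoids edgeR called none of the 10 genes, and DESeq2 called p15 alone. There edgeR called 6.40% of all genes tested, so a count of 0 is near the background, against 17% of all genes in proximal Scramble-sgRNA, 26.4% in distal Scramble-sgRNA and 33.1% in distal Cdx2-sgRNA organoids.

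The series holds 16 RNA-seq libraries in 8 groups of 2, from organoids, which are epithelial cultures grown in Matrigel from colon crypts. They came from the beginning and the end of the colon of female mice aged 8 weeks. All groups share one genotype, heterozygous for Cre-inducible BRAFV600E and for a tdTomato reporter, and no Cre treatment is named for these libraries. All were transduced with lentiviral Cas9 carrying either Scramble-sgRNA, the control guide, or Cdx2-sgRNA, which targets Cdx2, the homeobox factor of intestinal identity, and were selected for 2 weeks. Each Cdx2-sgRNA line is a single clone with a Cdx2 frameshift, a step that is not described for the Scramble-sgRNA organoids, so a difference between guides cannot be told apart from one between a clone and a mixed culture. RNA was taken at 4 months of culture, after 2 days in WENR-plus medium, which holds Wnt3a, EGF, Noggin and R-spondin 1, and 3 more days either in the same medium (WENR-plus) or without these 4 factors (WENR-minus). The methods name 2 mice, and the replicate number was read as the mouse, so p-values measure the spread between the organoid cultures of 2 mice and no more.

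Total reads per library were between 12465194 and 18922143 (median 16836530). Cdx2 itself held 515 to 3269 reads in every library, and its RNA was lower with Cdx2-sgRNA in proximal organoids, with a log2 fold change of -1.29 in WENR-minus (SE 0.20, adjusted p = 0.000679) and of -2.09 in WENR-plus (SE 0.21, adjusted p = 5.48e-05). In distal organoids the log2 fold changes of Cdx2 were -0.07 in WENR-minus (SE 0.20, adjusted p = 0.876) and -0.36 in WENR-plus (SE 0.20, adjusted p = 0.857), and a frameshift need not lower the RNA. The 7 epithelial markers together reached 3972 to 18059 CPM (reads relative to library size, scaled by TMM) in every library, while the 5 fibroblast markers together stayed at 0 to 1.12 CPM and Col1a2, Col3a1 and Dcn at no more than 3 reads. The 4 immune markers reached 1.90 to 20.3 CPM in the proximal Cdx2-sgRNA libraries and 0 to 1.51 CPM elsewhere. Nearly all of this was Csf1r, since Cd3e and Adgre1 held at most 3 reads in all 16 libraries. Markers of differentiated colon epithelium (Krt20, Car1, Fabp2 and Muc2) summed to 514 to 1587 CPM in proximal Cdx2-sgRNA WENR-minus libraries and to 4559 to 11311 CPM in the other WENR-minus libraries. Krt20 did not share in this, with 489 and 1572 CPM in proximal Cdx2-sgRNA and 995 and 580 CPM in proximal Scramble-sgRNA WENR-minus libraries.

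A cell passes from G1 into S phase when D cyclins with CDK4 or CDK6, and then cyclin E with CDK2, phosphorylate the retinoblastoma protein and release E2F factors. Inhibitors of 2 families hold these kinases back. The CIP/KIP proteins p21 (Cdkn1a), p27 (Cdkn1b) and p57 (Cdkn1c) bind cyclin-CDK complexes, whereas the INK4 proteins p16 (Cdkn2a), p15 (Cdkn2b), p18 (Cdkn2c) and p19 (Cdkn2d) bind CDK4 and CDK6 alone. In the gut, D cyclins are found mainly in dividing crypt cells, and p21 and p27 in cells that have left the cycle.

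Promoter sequence is shown for the 4 inhibitor genes the results turn on most and for which one was at hand, with both starts of Cdkn2a, because that gene makes 2 unrelated proteins from separate promoters. The sequences lie before the RefSeq start in GRCm38.p6, are 216 to 250 bases long, end at the first annotated exon of the gene where that comes before the RefSeq start, and are read 5′ to 3′ on the strand of the gene. Capitals mark a GC box, the letters GGGCGG on either strand bound by SP1, or the E2F letters TTTCCCGC.
Cdkn1a, main start, chr17:29093519-29093768, plus strand: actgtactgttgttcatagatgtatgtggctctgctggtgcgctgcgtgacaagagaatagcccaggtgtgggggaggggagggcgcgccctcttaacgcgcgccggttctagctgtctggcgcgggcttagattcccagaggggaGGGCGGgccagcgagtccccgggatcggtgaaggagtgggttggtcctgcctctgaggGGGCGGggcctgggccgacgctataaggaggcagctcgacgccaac
Cdkn1b, chr6:134920151-134920400, plus strand: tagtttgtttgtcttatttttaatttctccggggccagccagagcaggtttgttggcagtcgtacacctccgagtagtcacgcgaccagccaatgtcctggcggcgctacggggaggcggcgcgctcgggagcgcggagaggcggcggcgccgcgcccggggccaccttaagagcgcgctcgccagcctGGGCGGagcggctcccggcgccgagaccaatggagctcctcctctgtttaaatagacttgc
Cdkn2b, chr4:89311040-89311282, minus strand: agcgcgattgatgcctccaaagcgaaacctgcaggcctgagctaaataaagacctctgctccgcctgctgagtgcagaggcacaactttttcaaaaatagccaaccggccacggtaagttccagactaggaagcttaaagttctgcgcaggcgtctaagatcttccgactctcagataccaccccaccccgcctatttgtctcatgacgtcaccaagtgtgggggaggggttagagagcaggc
Cdkn2a, p19Arf start, chr4:89294654-89294869, minus strand: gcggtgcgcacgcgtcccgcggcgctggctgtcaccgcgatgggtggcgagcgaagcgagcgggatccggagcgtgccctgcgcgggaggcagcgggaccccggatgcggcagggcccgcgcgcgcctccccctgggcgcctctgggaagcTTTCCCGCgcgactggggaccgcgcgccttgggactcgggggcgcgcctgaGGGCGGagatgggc
Cdkn2a, p16Ink4a start, chr4:89282193-89282442, minus strand: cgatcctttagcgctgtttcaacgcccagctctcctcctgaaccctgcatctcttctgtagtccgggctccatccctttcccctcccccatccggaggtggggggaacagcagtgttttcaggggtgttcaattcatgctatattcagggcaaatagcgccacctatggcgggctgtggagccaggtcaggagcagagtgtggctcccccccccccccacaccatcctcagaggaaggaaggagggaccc

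The GC box was found 46 and 104 bases before the main Cdkn1a start, 61 bases before the Cdkn1b start and 14 bases before the end of the p19Arf window, where the first exon of p19Arf begins. The E2F letters lay 65 bases before that end. Of 32851 promoter windows of 250 bases, 32.7% held a GC box and 0.895% held TTTCCCGC on either strand, so the GC box is common and the E2F match is not. The Cdkn2b and p16Ink4a windows held none of the letters searched. Windows of at least 216 bases outside annotated exons were at hand for 5 of the 10 genes, Cdkn1a, Cdkn1b, Cdkn2a, Cdkn2b and Ccnd3. None of these windows held the TCF/LEF letters CTTTGA, which 13.8% of all windows hold, or the CDX letters CAATAAA, which 4.20% hold. The FOXO letters GTAAACA, in 3.17% of windows, were found only before the upstream start of Ccnd3, 243 bases away, and TTTGGCGC, in 0.417%, in none of those windows. GC content was 64.8% for Cdkn1a, 64.4% for Cdkn1b, 53.5% for Cdkn2b, 78.7% for p19Arf and 60.0% for p16Ink4a.

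The first comparison asked how the inhibitors and D cyclins respond when Wnt3a, EGF, Noggin and R-spondin 1 are withdrawn, for each region and guide. Calls were made with edgeR's quasi-likelihood test and needed both a log2 fold change beyond 1 in either direction and an adjusted p below 0.05. Of the 10 genes, 5 were called in proximal Scramble-sgRNA organoids (3 higher and 2 lower in WENR-minus), where 17% of all genes tested were called. In proximal Cdx2-sgRNA organoids edgeR called 0 of the 10 (2 had an unadjusted p under 0.05, and DESeq2 called 1, Cdkn2b), with 6.40% of all genes called. In distal organoids 7 were called with either guide, each time 4 higher and 3 lower, beside 26.4% of all genes with Scramble-sgRNA and 33.1% with Cdx2-sgRNA. The median log2 fold change of all genes lay between -0.11 and -0.03 in these comparisons, and that of the 10 genes between -0.05 and 0.07. With 2 libraries a group, a lack of overlap between groups is common, called or not. In distal Cdx2-sgRNA organoids it held for all 10 genes, and the share over all genes was not counted. The plot of medium effects shows each gene with its error.

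**Figure D1:**
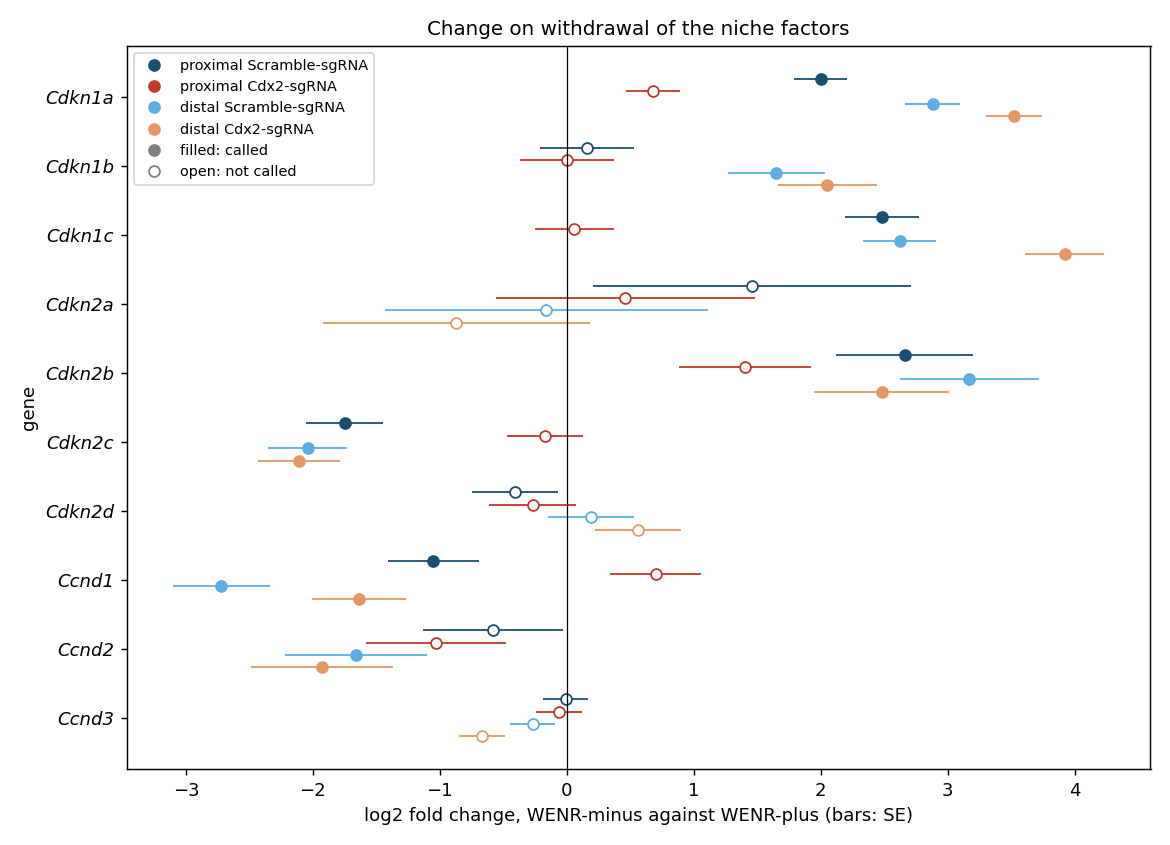
Log2 fold change of each gene in WENR-minus against WENR-plus medium (x axis, with bars of 1 SE; genes on the y axis) in the 4 combinations of region and guide (colours); filled points were called and open points were not. Cdkn1a, Cdkn1c and Cdkn2b lie right of 0 in every combination, from 0.06 for Cdkn1c in proximal Cdx2-sgRNA organoids up to 3.92 for the same gene in distal Cdx2-sgRNA organoids.

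Among the CIP/KIP genes, Cdkn1a (p21, ENSMUSG00000023067, chr17:29090976-29100727), a p53 target that also rises as gut cells differentiate, was at 25.2 and 21.6 CPM in proximal Scramble-sgRNA WENR-plus libraries and at 98.1 and 88.7 CPM in WENR-minus. This was a 3.99-fold rise (log2 2.00, SE 0.21, adjusted p = 0.000212). In distal Scramble-sgRNA organoids Cdkn1a went from 39 and 30.4 to 264 and 247 CPM (7.37-fold, log2 2.88, SE 0.22, adjusted p = 2.31e-05). In distal Cdx2-sgRNA organoids it went from 36.3 and 34.2 to 435 and 373 CPM (11.5-fold, log2 3.52, SE 0.22, adjusted p = 2.98e-06), the highest values of the gene in the series. The groups did not overlap in any of these 3 comparisons. In proximal Cdx2-sgRNA organoids the values were 37.5 and 23.2 CPM in WENR-plus and 48.3 and 49.0 CPM in WENR-minus, a log2 difference of 0.68 (SE 0.21, adjusted p = 0.0514) that was not called. Without replicate 1 of the WENR-plus libraries of that group it was 1.08 (adjusted p = 0.0081). The medium effect on Cdkn1a was smaller in Cdx2-sgRNA than in Scramble-sgRNA proximal organoids, with a difference of -1.31 between the log2 fold changes (SE 0.29, adjusted p = 0.0358), in a contrast that called 3.60% of all genes.

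Cdkn1c (p57, ENSMUSG00000037664, chr7:143458339-143461050) is an imprinted gene expressed from the maternal allele. It was at 6.55 and 5.92 CPM in proximal Scramble-sgRNA WENR-plus libraries and at 42.6 and 26.8 CPM in WENR-minus (5.57-fold, log2 2.48, SE 0.29, adjusted p = 0.000322). In distal organoids it went from 9.31 and 8.76 to 54.1 and 56.9 CPM with Scramble-sgRNA (6.14-fold, log2 2.62, SE 0.29, adjusted p = 8.23e-05). With Cdx2-sgRNA, distal Cdkn1c went from 9.97 and 6.29 to 133 and 113 CPM (15.1-fold, log2 3.92, SE 0.31, adjusted p = 6.36e-06). Every WENR-minus library thus stood above every WENR-plus library in these 3 settings. Proximal Cdx2-sgRNA organoids had 5.10 and 2.96 CPM in WENR-plus and 4.38 and 4.02 CPM in WENR-minus, so the values overlapped (log2 0.06, SE 0.31, adjusted p = 0.944). The difference between the medium effects of the 2 guides in proximal organoids was -2.41 (SE 0.42, adjusted p = 0.017). In distal organoids the same difference was 1.30 (SE 0.39, adjusted p = 0.338), in a contrast where edgeR called 0.00% of all genes, DESeq2 called 120 genes and 1457 had an unadjusted p under 0.05. Of the 10 genes neither tool called any there, and 2 had an unadjusted p under 0.05. The 2 called differences in proximal organoids depend on single libraries. That of Cdkn1a had adjusted p between 0.0537 and 0.121 without any 1 of the 2 proximal Cdx2-sgRNA WENR-minus libraries, the 2 proximal Scramble-sgRNA WENR-plus libraries, or replicate 1 of the proximal Cdx2-sgRNA WENR-plus or Scramble-sgRNA WENR-minus libraries, and that of Cdkn1c between 0.0638 and 0.0758 without replicate 2 of proximal Cdx2-sgRNA WENR-minus, replicate 1 of proximal Scramble-sgRNA WENR-minus or either proximal Scramble-sgRNA WENR-plus library.

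Cdkn1b (p27, ENSMUSG00000003031, chr6:134920401-134925513), which is largely controlled through destruction of its protein, was called in distal organoids. With Scramble-sgRNA it was at 68.0 and 52.5 CPM in WENR-plus and 160 and 220 CPM in WENR-minus (3.15-fold, log2 1.65, SE 0.38, adjusted p = 0.0051). With Cdx2-sgRNA it was at 65.3 and 72 CPM in WENR-plus and 279 and 289 CPM in WENR-minus (4.13-fold, log2 2.05, SE 0.39, adjusted p = 0.00115). In proximal organoids no change was called. With Scramble-sgRNA replicate 1 had 119 CPM in WENR-plus and 146 CPM in WENR-minus, and replicate 2 had 64.3 and 59.8 CPM (log2 0.16, SE 0.37, adjusted p = 0.783). With Cdx2-sgRNA the values were 104 and 133 CPM in WENR-plus and 108 and 130 CPM in WENR-minus (log2 0.00, SE 0.37, adjusted p = 1). The difference between regions in the medium effect of Scramble-sgRNA organoids was -1.49 for Cdkn1b (SE 0.53, adjusted p = 0.365) and was not called. That contrast called 0.0719% of all genes and none of the 10 described here with edgeR or DESeq2, and 3 of them had an unadjusted p under 0.05.

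Of the INK4 genes, Cdkn2b (p15, ENSMUSG00000073802, chr4:89306299-89311039), known as a target of TGF-beta, had the largest called medium effects. It went from 26.6 and 26.2 to 164 and 171 CPM in proximal Scramble-sgRNA organoids (6.33-fold, log2 2.66, SE 0.54, adjusted p = 0.00401). In distal organoids it went from 26.4 and 12.5 to 181 and 171 CPM with Scramble-sgRNA (9.02-fold, log2 3.17, SE 0.55, adjusted p = 0.000945). With Cdx2-sgRNA, distal Cdkn2b went from 30.4 and 29.1 to 187 and 146 CPM (5.59-fold, log2 2.48, SE 0.53, adjusted p = 0.00253). These 6 WENR-minus libraries lay between 146 and 187 CPM, whatever the region and guide. Proximal Cdx2-sgRNA organoids had 40.7 and 11.5 CPM in WENR-plus and 95.1 and 42.3 CPM in WENR-minus, with replicate 1 the higher in each medium (log2 1.40, SE 0.52, adjusted p = 0.0984). There the call depends on the model: with the replicate number as a block the log2 fold change was 1.44 (adjusted p = 0.04), with DESeq2 1.41 (adjusted p = 0.0278), and without replicate 1 of the WENR-plus libraries 2.58 (adjusted p = 0.0119). The difference between guides in the proximal medium effect was -1.27 (SE 0.72, adjusted p = 0.346).

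Cdkn2c (p18, ENSMUSG00000028551, chr4:109660876-109667189), which is read by 16 to 203 reads per library, went the opposite way to the other inhibitors that were called. It fell from 9.70 and 8.64 to 2.04 and 3.39 CPM in proximal Scramble-sgRNA organoids, 3.38-fold lower in WENR-minus (log2 -1.75, SE 0.30, adjusted p = 0.00184). In distal organoids it fell from 8.61 and 6.29 to 1.54 and 2.08 CPM with Scramble-sgRNA (4.12-fold lower, log2 -2.04, SE 0.31, adjusted p = 0.000473). With Cdx2-sgRNA, distal Cdkn2c fell from 5.79 and 6.98 to 1.61 and 1.34 CPM (4.34-fold lower, log2 -2.11, SE 0.32, adjusted p = 0.000261). Cdkn2c is an E2F target that is read mostly in dividing cells. In proximal Cdx2-sgRNA organoids all 4 libraries were between 3.64 and 4.47 CPM (log2 -0.17, SE 0.30, adjusted p = 0.776). The difference between guides in the proximal medium effect was 1.58 (SE 0.42, adjusted p = 0.0587), and it was 1.58 with DESeq2 (adjusted p = 0.0118) and 1.95 (adjusted p = 0.0321) without replicate 2 of the proximal Scramble-sgRNA WENR-minus libraries.

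The last pair of INK4 genes was read at low levels. Cdkn2d (p19, ENSMUSG00000096472, chr9:21288410-21291407) had 44 to 131 reads and 2.75 to 6.26 CPM over all 16 libraries, and its log2 fold changes with medium were between -0.41 and 0.56, none called (lowest adjusted p = 0.207). Kri1, which overlaps or adjoins it in the annotation, held 41 to 283 reads, up to 432% of the reads of Cdkn2d in a library. How the division of reads between them bears on Cdkn2d was not tested. Cdkn2a (p16Ink4a and p19Arf, ENSMUSG00000044303, chr4:89274471-89294653) had 0 to 48 reads per library and no called medium effect, with SEs of 1.02 to 1.27 on the log2 scale, so that a change of several-fold was not detectable at this depth.

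**Figure D2:**
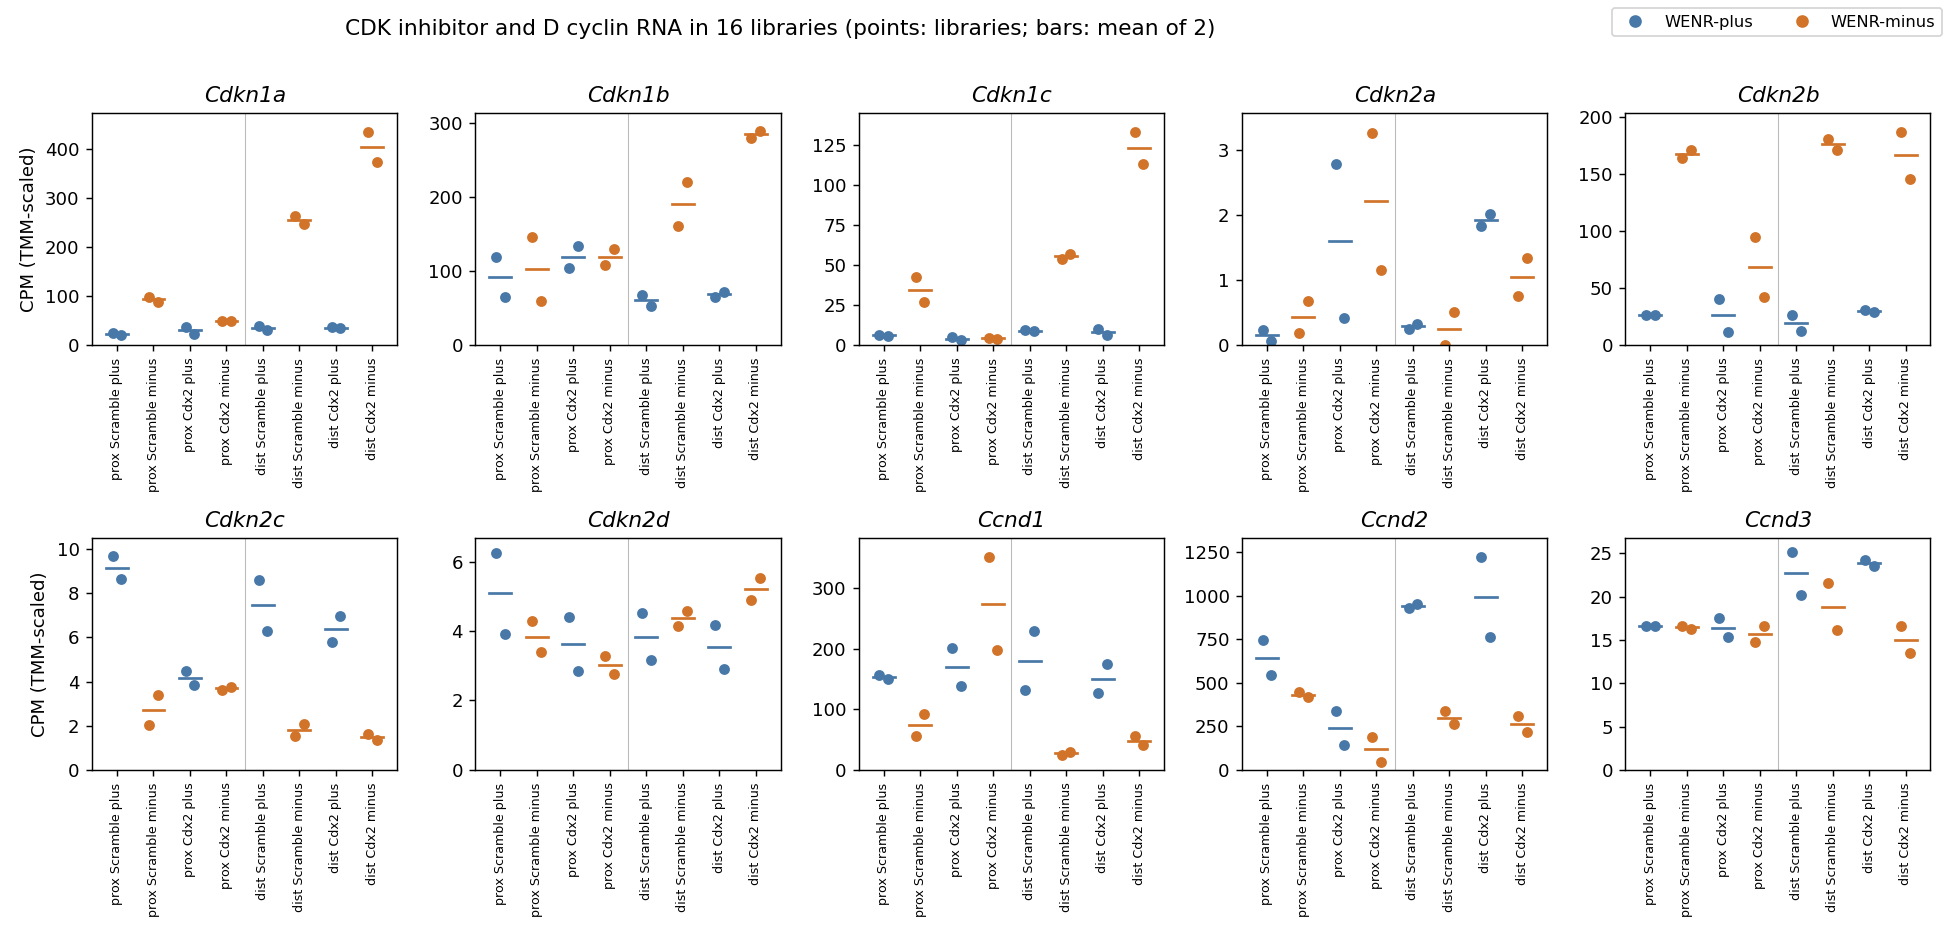
TMM-scaled CPM of the 10 genes (one panel each, y axis) in each of the 16 libraries (points) by group (x axis), with a bar at the mean of 2 libraries; blue is WENR-plus and orange WENR-minus medium. In distal organoids the orange points of Cdkn1a, Cdkn1b, Cdkn1c and Cdkn2b stand above the blue ones with either guide, while those of proximal Cdx2-sgRNA organoids stay near the blue ones for Cdkn1c (2.96 to 5.10 CPM).

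Among the D cyclins, edgeR called falls and no rise with medium. Ccnd1 (cyclin D1, ENSMUSG00000070348, chr7:144929931-144939925), a target of mitogen and Wnt signalling, went from 131 and 229 to 24.9 and 29.6 CPM in distal Scramble-sgRNA organoids, 6.60-fold lower (log2 -2.72, SE 0.38, adjusted p = 0.000291). With Cdx2-sgRNA, distal Ccnd1 went from 126 and 175 to 55.6 and 41.1 CPM (3.12-fold lower, log2 -1.64, SE 0.37, adjusted p = 0.00333). In proximal Scramble-sgRNA organoids it went from 156 and 150 to 55.1 and 92.5 CPM (2.07-fold lower, log2 -1.05, SE 0.36, adjusted p = 0.0475). This call sat at the edge of both thresholds and was lost with the replicate block (log2 -1.06, adjusted p = 0.0516). It was also lost without WENR-minus replicate 1 (log2 -0.71, adjusted p = 0.3) and without WENR-plus replicate 1 (log2 -0.98, adjusted p = 0.153) or 2 (log2 -1.05, adjusted p = 0.13). In proximal Cdx2-sgRNA organoids the values were 201 and 138 CPM in WENR-plus and 352 and 197 CPM in WENR-minus, which overlapped, with the higher mean in the medium without factors (log2 0.70, SE 0.36, adjusted p = 0.229). The difference between guides in the proximal medium effect was 1.75 (SE 0.51, adjusted p = 0.073 with edgeR and 0.00943 with DESeq2).

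Ccnd2 (cyclin D2, ENSMUSG00000000184, chr6:127125162-127152193), the D cyclin with the highest mean TPM over the 16 libraries, went from 931 and 956 to 336 and 261 CPM in distal Scramble-sgRNA organoids (3.16-fold lower, log2 -1.66, SE 0.56, adjusted p = 0.034). With Cdx2-sgRNA, distal Ccnd2 went from 1224 and 764 to 307 and 215 CPM (3.81-fold lower, log2 -1.93, SE 0.56, adjusted p = 0.0151). The libraries of the media did not overlap with either guide. In proximal organoids no change was called: Scramble-sgRNA libraries were at 746 and 544 CPM in WENR-plus and 447 and 418 CPM in WENR-minus (log2 -0.58, SE 0.55, adjusted p = 0.464). Proximal Cdx2-sgRNA libraries were at 339 and 142 CPM in WENR-plus and 191 and 45.8 CPM in WENR-minus, with replicate 2 the lower each time (log2 -1.03, SE 0.55, adjusted p = 0.252). Without WENR-minus replicate 1 of that group the value was -2.35 (adjusted p = 0.0233). The distal calls rest on few libraries: leaving out any 1 of the 4 Scramble-sgRNA libraries gave adjusted p between 0.0873 and 0.159, and with Cdx2-sgRNA the call was lost without WENR-minus replicate 2 (log2 -1.65, adjusted p = 0.112) and without WENR-plus replicate 1 (log2 -1.48, adjusted p = 0.0947).

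Ccnd3 (cyclin D3, ENSMUSG00000034165, chr17:47505051-47599691) varied least of the 3 D cyclins, from 13.5 to 25.2 CPM over the 16 libraries. Its largest medium effect was in distal Cdx2-sgRNA organoids, from 24.2 and 23.5 to 16.6 and 13.5 CPM (log2 -0.67, SE 0.18, adjusted p = 0.0113), which passed the p threshold but not that on the fold change. In the other 3 settings its log2 fold change was -0.01 (adjusted p = 0.984), -0.06 (adjusted p = 0.888) and -0.27 (adjusted p = 0.267). Bysl, which overlaps or adjoins Ccnd3 in the annotation, held 63 to 378 reads, up to 85.7% of the reads of Ccnd3 in a library.

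The rest of the G1 machinery was read from lists of other genes. Of 9 CDK and cyclin E, A and B genes, 8 fell in WENR-minus in proximal Scramble-sgRNA organoids (list median log2 -1.50), 8 in distal Scramble-sgRNA organoids (median -1.92), and 8 fell and 1 rose in distal Cdx2-sgRNA organoids (median -2.46). In proximal Cdx2-sgRNA organoids edgeR called none of the 9 (median -0.23), of which 2 had an unadjusted p under 0.05. Of all genes, 17% were called in proximal Scramble-sgRNA, 26.4% in distal Scramble-sgRNA and 33.1% in distal Cdx2-sgRNA organoids. In proximal Cdx2-sgRNA organoids it was 6.40%, so counts of 0 there are near the background. Cdk4, the partner of the D cyclins, had log2 fold changes of -1.46 and -1.92 in proximal and distal Scramble-sgRNA organoids and -2.58 in distal Cdx2-sgRNA organoids, all called, and -0.74 (adjusted p = 0.0537) in proximal Cdx2-sgRNA organoids. Ccna2, cyclin A2 of S phase, was the gene of this list that fell most in distal Cdx2-sgRNA organoids, by 3.69 (SE 0.39, adjusted p = 2.64e-05). Of 14 proliferation markers 13 fell in each of the 3 settings other than proximal Cdx2-sgRNA, where edgeR called none and none had an unadjusted p under 0.05. Their summed level was 961 to 1059 CPM in proximal Cdx2-sgRNA WENR-minus libraries and 853 to 1083 CPM in WENR-plus, against 395 to 728 and 1886 to 2177 CPM in proximal Scramble-sgRNA libraries. In such bulk libraries fewer cells of a type and less RNA per cell cannot be told apart, and what part the share of dividing cells has in the values of the 10 genes was not tested.

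Of 13 Rb and E2F genes, 1 rose and 2 fell in WENR-minus in proximal Scramble-sgRNA organoids, 1 rose and 1 fell in proximal Cdx2-sgRNA, 2 rose and 5 fell in distal Scramble-sgRNA and 1 rose and 5 fell in distal Cdx2-sgRNA organoids. E2f1, whose product drives S phase genes, was lower by 1.75, 3.00 and 3.85 on the log2 scale in proximal Scramble-sgRNA, distal Scramble-sgRNA and distal Cdx2-sgRNA organoids, and in each it changed most of the list. Rb1, the retinoblastoma gene itself, rose in distal organoids (log2 1.24 with Scramble-sgRNA and 1.20 with Cdx2-sgRNA). Of 11 regulators of CDKs and of inhibitor turnover, 6, 7 and 5 fell in the same 3 settings and 0 rose, and in proximal Cdx2-sgRNA organoids 1 rose, the phosphatase gene Cdc25b (log2 1.28). Skp2, which marks p27 protein for destruction, had log2 fold changes of -2.04, -2.13 and -2.76 in those 3 settings and -0.50 (adjusted p = 0.386) in proximal Cdx2-sgRNA organoids. Of 12 p53 and Polycomb genes 1 fell in proximal Scramble-sgRNA organoids (Cbx7, log2 -1.14), none was called by edgeR in proximal Cdx2-sgRNA organoids, with 2 at an unadjusted p under 0.05, and 4 fell with either guide in distal organoids. Eed, a subunit of Polycomb complex 2, fell most there, by 2.63 with Scramble-sgRNA and 2.16 with Cdx2-sgRNA. In proximal and distal Scramble-sgRNA and distal Cdx2-sgRNA organoids, where 17%, 26.4% and 33.1% of all genes were called, the calls were 23.1%, 53.8% and 46.2% of the Rb and E2F genes, 54.5%, 63.6% and 45.5% of the regulators, and 8.3%, 33.3% and 33.3% of the p53 and Polycomb genes, the last near or below that background. The counts in proximal Cdx2-sgRNA organoids stand beside 6.40% of all genes. Trp53 fell in distal organoids (log2 -1.67 and -1.88) and had values of -0.76 and 0.06 in proximal ones, where neither was called.

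The second comparison, Cdx2-sgRNA against Scramble-sgRNA within each region and medium, asked what loss of Cdx2 does to these genes. In proximal organoids 3 of the 10 were called in WENR-minus (1 higher and 2 lower with Cdx2-sgRNA), beside 21.2% of all genes, and 1 was called in WENR-plus, lower, beside 15.9% of all genes. In distal organoids 1 was called in WENR-minus, higher, beside 5.25% of all genes, and in WENR-plus, beside 0.262% of all genes, 0 were called by edgeR or DESeq2 and 1 had an unadjusted p under 0.05. The proximal Cdx2-sgRNA libraries are also those with the immune marker Csf1r, at 19.4 and 5.66 CPM in WENR-minus and 9.10 and 1.85 CPM in WENR-plus, against 0 to 1.09 CPM elsewhere, and its part in the values that follow was not tested.

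**Figure D3:**
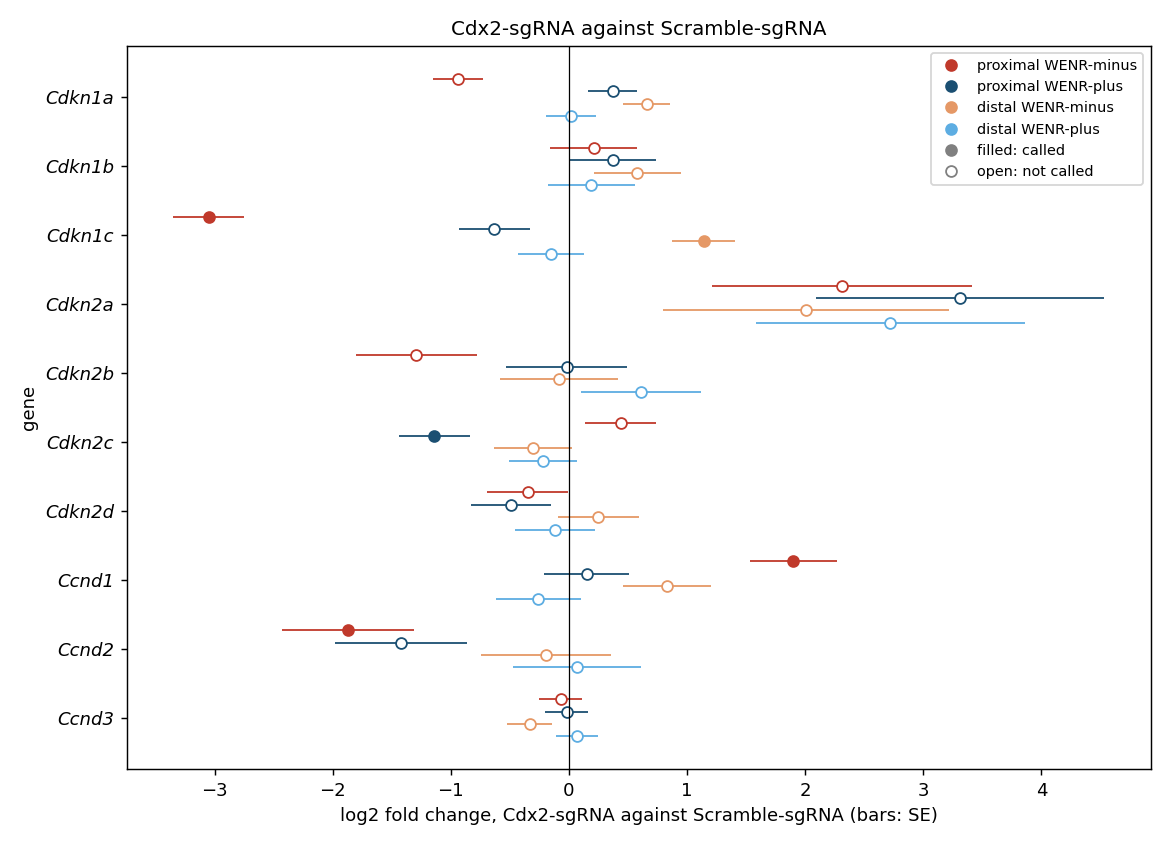
Log2 fold change of each gene with Cdx2-sgRNA against Scramble-sgRNA (x axis, with bars of 1 SE; genes on the y axis) in the 4 combinations of region and medium (colours); filled points were called and open points were not. Cdkn1c is at -3.05 in proximal and at 1.14 in distal WENR-minus organoids, and Cdkn2a has the longest bars because it has few reads.

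Among the called genes Cdkn1c had the largest guide effect. In WENR-minus medium it was at 42.6 and 26.8 CPM in proximal Scramble-sgRNA and at 4.38 and 4.02 CPM in proximal Cdx2-sgRNA libraries, 8.27-fold lower (log2 -3.05, SE 0.30, adjusted p = 3.57e-05). In distal organoids it was higher with Cdx2-sgRNA, 133 and 113 CPM against 54.1 and 56.9 CPM (2.21-fold, log2 1.14, SE 0.27, adjusted p = 0.0255). The distal call was lost whichever of its 4 libraries was left out, with log2 values of 1.03 to 1.25 and adjusted p of 0.0902 to 0.141. The difference between the proximal and the distal guide effect was -4.19 (SE 0.41, adjusted p = 7.29e-05), in a contrast that called 14.3% of all genes and 2 of the 10. In WENR-plus the guide effect on Cdkn1c was -0.63 in proximal organoids (SE 0.30, adjusted p = 0.144).

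The other gene called in that contrast was Cdkn1a, with a difference of -1.60 (SE 0.29, adjusted p = 0.00408). Its guide effect in WENR-minus was -0.94 in proximal organoids (SE 0.21, adjusted p = 0.00547), short of the fold threshold, and 0.66 in distal organoids (SE 0.20, adjusted p = 0.0638). Proximal Cdx2-sgRNA libraries stood at 48.3 and 49.0 CPM against 98.1 and 88.7 CPM, and distal Cdx2-sgRNA libraries at 435 and 373 CPM against 264 and 247 CPM. Without replicate 2 of proximal Scramble-sgRNA WENR-minus the proximal value was -1.03 (adjusted p = 0.0126), past both thresholds. In WENR-plus the effect was 0.37 in proximal organoids (adjusted p = 0.216). The same contrast in WENR-plus called 4.98% of all genes and none of the 10 with edgeR or DESeq2, and 1 of them had an unadjusted p under 0.05.

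In proximal WENR-minus organoids Ccnd1 was higher and Ccnd2 lower with Cdx2-sgRNA. There Ccnd1 was at 55.1 and 92.5 CPM with Scramble-sgRNA and at 352 and 197 CPM with Cdx2-sgRNA (3.72-fold, log2 1.90, SE 0.37, adjusted p = 0.00274), and the groups did not overlap. Ccnd2 was at 447 and 418 CPM with Scramble-sgRNA and at 191 and 45.8 CPM with Cdx2-sgRNA (3.66-fold lower, log2 -1.87, SE 0.56, adjusted p = 0.0269). The Ccnd2 call was lost without replicate 2 of the Cdx2-sgRNA libraries (log2 -1.19, adjusted p = 0.11), the lower of the 2, and without replicate 1 (log2 -1.80, adjusted p = 0.0882) or 2 (log2 -1.94, adjusted p = 0.0602) of the Scramble-sgRNA libraries. In WENR-plus Ccnd1 did not differ by more than its error (log2 0.15, SE 0.36, adjusted p = 0.798). Ccnd2 there was at 339 and 142 CPM with Cdx2-sgRNA and 746 and 544 CPM with Scramble-sgRNA (log2 -1.42, SE 0.56, adjusted p = 0.0842). With the replicate block this was -1.51 (adjusted p = 0.0212) and with DESeq2 -1.38 (adjusted p = 0.0356). Leaving out replicate 1 of the Cdx2-sgRNA libraries, the higher at 339 CPM, gave -2.19, so the size depends on the library kept. In distal organoids no D cyclin was called, with log2 values of 0.83 (SE 0.37, adjusted p = 0.181) for Ccnd1, -0.19 for Ccnd2 and -0.33 for Ccnd3 in WENR-minus. The regional difference of the guide effect in WENR-minus was 1.07 for Ccnd1 (SE 0.51, adjusted p = 0.172) and -1.68 for Ccnd2 (SE 0.78, adjusted p = 0.16). For Ccnd2 it was -1.86 (adjusted p = 0.0443) with the block and -3.02 (adjusted p = 0.011) without replicate 1 of proximal Cdx2-sgRNA WENR-minus.

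Among the INK4 genes, Cdkn2c was lower with Cdx2-sgRNA in proximal WENR-plus organoids, at 4.47 and 3.86 CPM against 9.70 and 8.64 CPM (2.20-fold, log2 -1.14, SE 0.30, adjusted p = 0.0171). Leaving out any 1 of these 4 libraries moved the adjusted p to between 0.0501 and 0.103. Cdkn2b in proximal WENR-minus organoids was at 95.1 and 42.3 CPM with Cdx2-sgRNA and at 164 and 171 CPM with Scramble-sgRNA (log2 -1.29, SE 0.51, adjusted p = 0.0772). That value was -1.40 (adjusted p = 0.0246) with the replicate block, -1.24 (adjusted p = 0.0406) with DESeq2 and -1.96 (adjusted p = 0.0379) without replicate 1 of the Cdx2-sgRNA libraries. Cdkn2a had more reads with Cdx2-sgRNA, with log2 values of 3.31 (SE 1.22, adjusted p = 0.0686) in proximal WENR-plus, 2.31 (adjusted p = 0.136) in proximal WENR-minus, 2.72 (SE 1.14, adjusted p = 0.714) in distal WENR-plus and 2.01 (SE 1.21, adjusted p = 0.323) in distal WENR-minus. None was called. In proximal WENR-plus DESeq2 gave 3.43 (adjusted p = 0.0269). The libraries there held 48 and 8 reads with Cdx2-sgRNA against 5 and 1 with Scramble-sgRNA, so the value rests mainly on replicate 1. Without replicate 2 of the Cdx2-sgRNA libraries, the lower, it was 4.11. Cdkn1b, Cdkn2d and Ccnd3 were called in no comparison of the guides.

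With the guide, 1 of the 9 CDK and cyclin genes rose in proximal WENR-minus organoids (Ccnb2, log2 1.24) and 3 fell in proximal WENR-plus (Ccne1 most, by 1.80, SE 0.36, adjusted p = 0.00438). In distal WENR-minus 1 rose and 1 fell (Ccna2, log2 -1.95), and in distal WENR-plus edgeR called none and none had an unadjusted p under 0.05. Of the 14 proliferation markers 5 rose with Cdx2-sgRNA in proximal WENR-minus (median log2 1.06) and 7 fell in proximal WENR-plus (median -1.09). In distal WENR-minus 2 fell. Of the Rb and E2F genes 3 fell in proximal organoids in each medium, E2f2 most (log2 -2.20, SE 0.21, adjusted p = 2.88e-05 without the factors, and -2.35 with them), and 1 fell in distal WENR-minus. Of the regulators 3 rose in proximal WENR-minus, Cks1b most (log2 1.51), and 2 fell in proximal WENR-plus. Of the p53 and Polycomb genes, Cbx7, a Polycomb subunit known to hold down Cdkn2a, rose in proximal WENR-minus (log2 1.91, SE 0.34, adjusted p = 0.00172) and WENR-plus (log2 1.26), and Bmi1, of the same complex, fell in WENR-minus (adjusted p = 0.00712). In proximal WENR-minus, beside 21.2% of all genes, the calls were 23.1% of the Rb and E2F genes, 27.3% of the regulators and 25% of the p53 and Polycomb genes, all near the background. The 1 CDK and cyclin gene of 9 called there is below it. Of all genes, 15.9% were called in proximal WENR-plus, 5.25% in distal WENR-minus and 0.262% in distal WENR-plus. The calls of Rb and E2F genes and of regulators in proximal WENR-plus also lie near that background.

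The third comparison, proximal against distal organoids, asked how the genes differ along the colon. With Scramble-sgRNA 2 of the 10 were called in WENR-minus (1 higher and 1 lower in proximal organoids), beside 6.08% of all genes, and in WENR-plus, beside 1.75% of all genes, 0 were called by edgeR or DESeq2 and 2 had an unadjusted p under 0.05. With Cdx2-sgRNA 5 were called in WENR-minus (2 higher and 3 lower), beside 34.6% of all genes, and 2 in WENR-plus, both lower, beside 17% of all genes. These contrasts use the libraries already described, so the per-library values are those given above.

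In Scramble-sgRNA WENR-minus organoids Cdkn1a was 2.74-fold lower in proximal than in distal cultures (log2 -1.45, SE 0.21, adjusted p = 0.0021). Ccnd1 was 2.71-fold higher (log2 1.44, SE 0.37, adjusted p = 0.0313). The Ccnd1 call was lost without distal replicate 1 (log2 1.32, adjusted p = 0.17), distal replicate 2 (log2 1.57, adjusted p = 0.124) or proximal replicate 2 (log2 1.01, adjusted p = 0.229). Cdkn1b, whose proximal Scramble-sgRNA libraries lay apart, had a log2 value of -0.89 (SE 0.38, adjusted p = 0.163), and of -1.71 (adjusted p = 0.0259) without proximal replicate 1. In WENR-plus the log2 value of Cdkn1a was -0.57 (adjusted p = 0.232).

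With Cdx2-sgRNA in WENR-minus, Cdkn1c was 29.2-fold lower in proximal organoids (log2 -4.87, SE 0.32, adjusted p = 1.09e-06) and Cdkn1a 8.31-fold lower (log2 -3.05, SE 0.22, adjusted p = 1.81e-06). Cdkn1b was 2.39-fold lower (log2 -1.26, SE 0.38, adjusted p = 0.0171), a call lost whichever of its 4 libraries was left out (adjusted p of 0.051 to 0.0967). So all 3 CIP/KIP genes were lower in the proximal cultures. Ccnd1 was 5.68-fold higher there (log2 2.51, SE 0.38, adjusted p = 0.000298) and Cdkn2c 2.51-fold higher (log2 1.32, SE 0.32, adjusted p = 0.0055). Of the proliferation markers 13 of 14 were also higher in the proximal cultures of this comparison, in which 34.6% of all genes were called. Cdkn2b missed the threshold (log2 -1.28, SE 0.51, adjusted p = 0.0572). It was called with DESeq2 (-1.30, adjusted p = 0.0212), with the replicate block (-1.35, adjusted p = 0.0191), with at least 10 counts in every library (adjusted p = 0.048) and without mitochondrial genes (adjusted p = 0.0472). Without proximal replicate 1 the value was -1.97. Without a low-count filter it was -1.29 (adjusted p = 2.7e-08), so the p-value moved with almost no change of the log2 value. Ccnd2 was likewise not called (log2 -1.15, SE 0.55, adjusted p = 0.107), and was called with the block (-1.30, adjusted p = 0.0229). Without proximal replicate 1 the value was -2.51. Without a low-count filter it was -1.16 (adjusted p = 1.19e-06), again with almost the same log2 value.

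In Cdx2-sgRNA WENR-plus organoids Ccnd2 was 4.13-fold lower in proximal cultures (log2 -2.05, SE 0.57, adjusted p = 0.0199). This call was lost without distal replicate 1 (log2 -1.64, adjusted p = 0.114) or proximal replicate 2 (log2 -1.55, adjusted p = 0.135). Cdkn1c was 2.02-fold lower (log2 -1.01, SE 0.30, adjusted p = 0.025), at the edge of the fold threshold. It fell below that threshold with DESeq2 (-0.98), and was -0.61 (adjusted p = 0.236) without distal replicate 1 and -0.67 (adjusted p = 0.183) without proximal replicate 2. Length-scaled counts, which correct for the transcripts used, gave -0.53 (adjusted p = 0.18). Ccnd3 differed by -0.54 (SE 0.18, adjusted p = 0.0445), short of the fold threshold.

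To set the 10 genes beside each other, levels were compared per length, as TPM (transcript abundance per length, with a fixed total in each library) summed per gene. Ccnd2 was the highest in all 3 WENR-plus groups other than proximal Cdx2-sgRNA, at 176 ± 52.5 TPM (SD, n = 2) in proximal Scramble-sgRNA, 240 ± 11.9 TPM in distal Scramble-sgRNA and 254 ± 87.9 TPM in distal Cdx2-sgRNA organoids. In WENR-minus an inhibitor was first: Cdkn2b in proximal Scramble-sgRNA organoids (197 ± 22.6 TPM) and Cdkn1a in distal organoids (197 ± 3.70 TPM with Scramble-sgRNA and 289 ± 38.8 TPM with Cdx2-sgRNA). In each of these 6 groups the libraries of the first gene did not overlap with those of the second. Proximal Cdx2-sgRNA organoids had Ccnd1 first in both media, at 69.5 ± 18.2 TPM in WENR-plus, where it overlapped with Cdkn1b (56.8 ± 8.18 TPM), and at 122 ± 58.4 TPM in WENR-minus, where it overlapped with Cdkn2b (96.6 ± 61.8 TPM). At the bottom of the order stood Cdkn2a in 5 groups and Cdkn2c in the other 3, and Cdkn2d was never above 8.62 TPM in a library.

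Over all 16 libraries the mean TPM ran from Ccnd2 (119) through Cdkn2b (94.9), Cdkn1a (94.7), Cdkn1b (59.7), Ccnd1 (56.7), Cdkn1c (39.6), Ccnd3 (18.0), Cdkn2d (4.78) and Cdkn2c (3.29) to Cdkn2a (2.20). In that order Ccnd3 stood apart from Cdkn2d in every library, and all other neighbours overlapped. With CPM per kilobase, which differs from TPM by 1 factor per library, the order within a library is the same by construction, and in the mean over all 16 libraries Cdkn1a and Cdkn2b changed places.

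**Figure D4:**
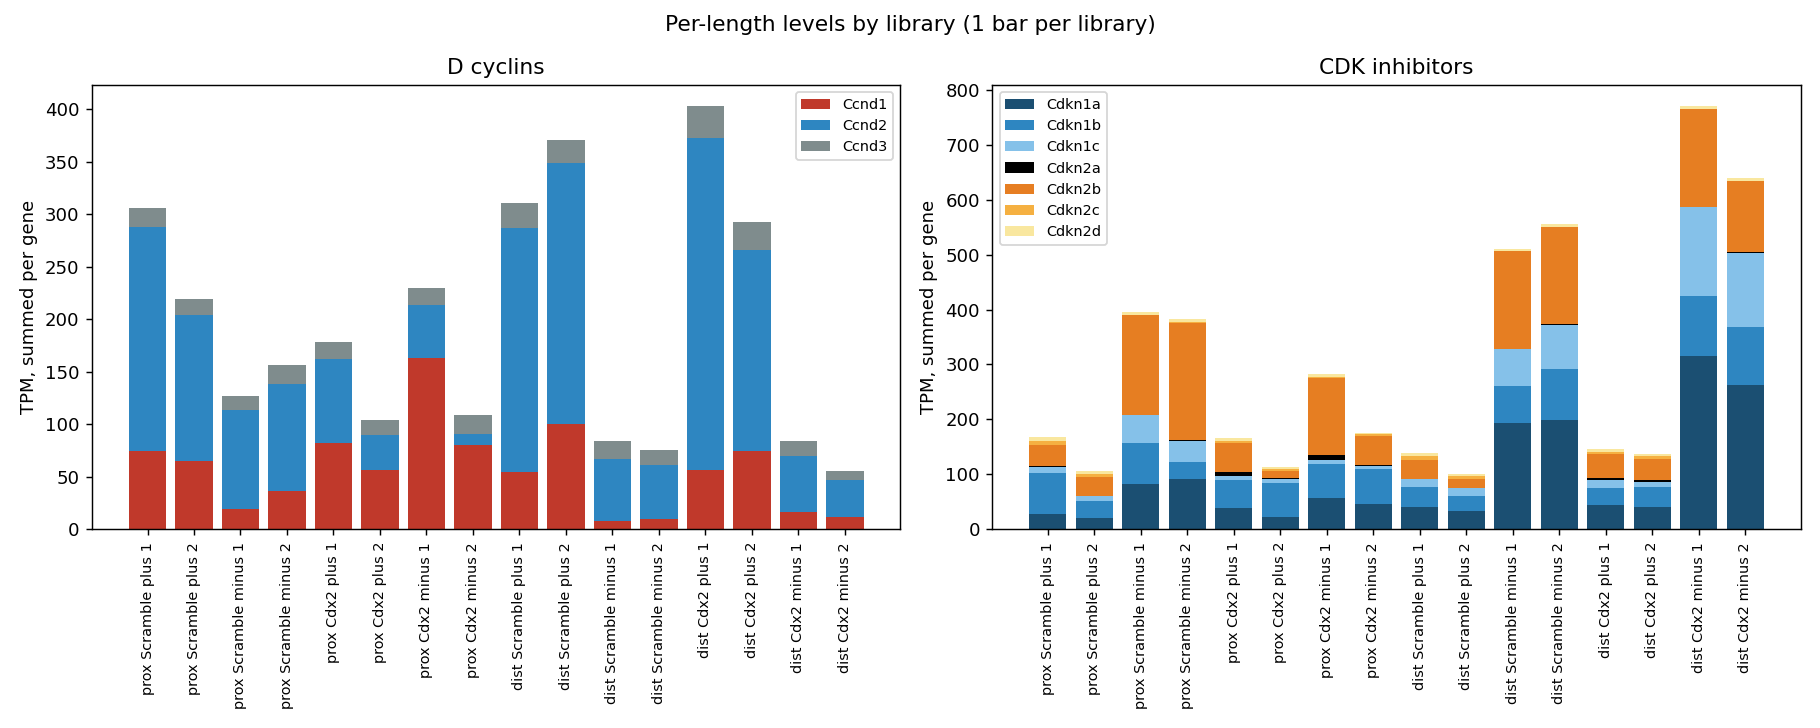
TPM of the 3 D cyclins (left) and of the 7 inhibitors (right) stacked for each of the 16 libraries (y axis, libraries by group on the x axis). The Ccnd1 share of the left bars is 46.1 to 74.0% in the 4 proximal Cdx2-sgRNA libraries and 9.04 to 29.4% in the other 12.

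The mix of D cyclins set the proximal Cdx2-sgRNA libraries apart. The ratio of Ccnd1 to Ccnd2 TPM was 1.03 and 1.73 in their WENR-plus libraries and 3.22 and 7.56 in WENR-minus, whereas it was 0.130 to 0.465 in the 12 other libraries. Ccnd1 exceeded Ccnd2 in 4 of 4 and 0 of 12 of them. Each culture is counted once in each medium, so these libraries are not all independent. The D cyclins summed to 306 and 219 TPM in proximal Scramble-sgRNA WENR-plus and 127 and 156 TPM in WENR-minus, and to 179 and 104 TPM and 230 and 108 TPM in the corresponding Cdx2-sgRNA libraries. In distal organoids they went from 310 and 370 to 84.3 and 75.0 TPM with Scramble-sgRNA and from 403 and 293 to 84.1 and 55.7 TPM with Cdx2-sgRNA.

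The inhibitors summed to 101 to 169 TPM in the 8 WENR-plus libraries. In WENR-minus they summed to 396 and 382 TPM in proximal Scramble-sgRNA, 510 and 556 TPM in distal Scramble-sgRNA, 771 and 638 TPM in distal Cdx2-sgRNA and 283 and 176 TPM in proximal Cdx2-sgRNA libraries. Inhibitor RNA exceeded D cyclin RNA in 8 of 8 WENR-minus libraries and in 1 of 8 WENR-plus libraries, proximal Cdx2-sgRNA replicate 2. The ratio was 6.05 to 11.5 in distal WENR-minus libraries, 2.45 to 3.12 in proximal Scramble-sgRNA WENR-minus, 1.23 to 1.62 in proximal Cdx2-sgRNA WENR-minus and 0.272 to 1.09 in WENR-plus libraries. These sums and ratios are of RNA and were not tested.

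Cdkn2a was also read by transcript, since p16Ink4a, which starts at an exon at chr4:89281986-89282192, and p19Arf, which starts at an exon at chr4:89294334-89294653, share their later exons but not their reading frame. p16Ink4a inhibits CDK4 and CDK6, while p19Arf stabilises p53. The p16Ink4a transcript was estimated at 0 reads in 11 of 16 libraries and above 3 reads in 2, proximal Cdx2-sgRNA replicate 1 in WENR-plus (11.2 reads) and in WENR-minus (13.8 reads). The p19Arf transcript was above 3 reads in 13 of 16 libraries and above p16Ink4a in 15 of 16, and it took 87.4% of the reads of the gene. The remaining library, distal Scramble-sgRNA WENR-minus replicate 1, had 0 reads of either, which allows up to 3.

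With Cdx2-sgRNA the p19Arf reads were 36.8 and 5.50 in proximal WENR-plus, 30.2 and 22.0 in proximal WENR-minus, 32.0 and 38.0 in distal WENR-plus and 6.13 and 14.1 in distal WENR-minus. With Scramble-sgRNA they were 5 and 1, 3 and 13, 5 and 6, and 0 and 7 in the same order. In WENR-plus the Cdx2-sgRNA libraries were above those of Scramble-sgRNA in distal organoids, and in proximal organoids above them as well, by less than 1 read between the nearest libraries. Salmon divides reads of the shared exons by estimation, so the split is less certain than the sum, and no test was run on it.

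**Figure D5:**
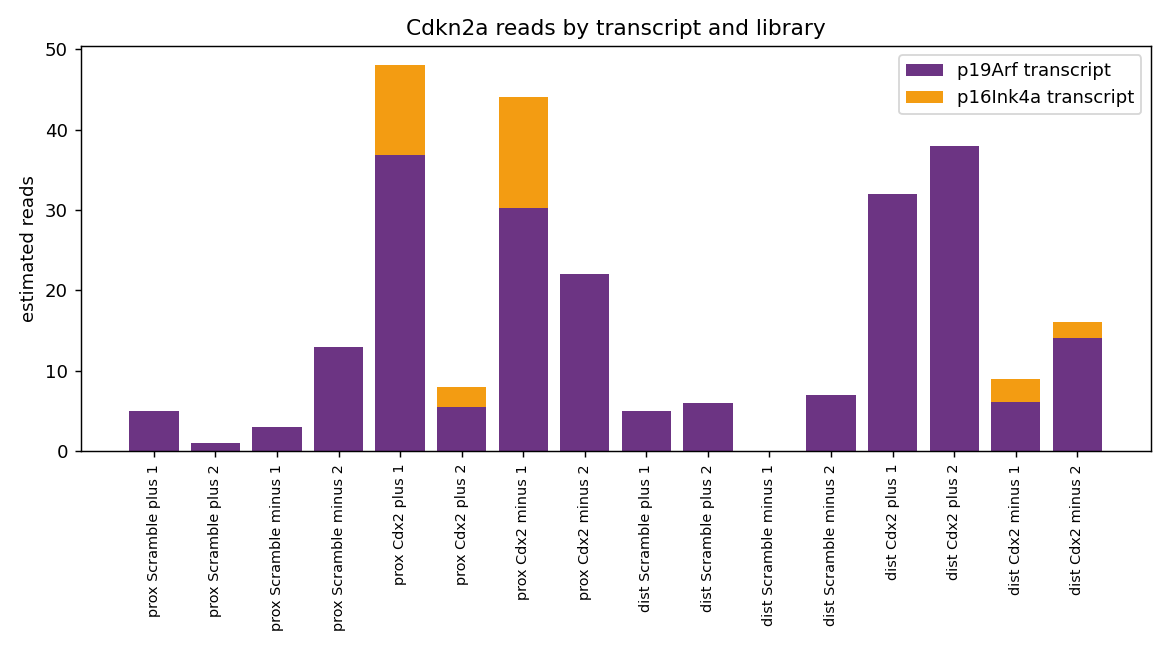
Estimated reads of the p19Arf and p16Ink4a transcripts of Cdkn2a, stacked, in each of the 16 libraries (y axis, reads not scaled; libraries by group on the x axis). The 6 highest bars, 16 to 48 reads, are all of Cdx2-sgRNA libraries, and p16Ink4a is above 3 reads only in replicate 1 of the proximal Cdx2-sgRNA organoids.

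Over the 16 libraries together the leading transcript of the other genes took 100% of the reads for Cdkn2b, 99.5% for Ccnd1, 98.5% for Ccnd2, 93.7% for Cdkn2c, 87.9% for Cdkn2d, 86.5% for Cdkn1a, 75.4% for Ccnd3, 58.1% for Cdkn1c and 40.5% for Cdkn1b. The values of the last 2 thus rest on several transcripts. In single libraries the share of the leading transcript went down to 11.9% for Cdkn2d and to 50.2% for Ccnd3. Genes that overlap or adjoin Cdkn1a and Cdkn1c in the annotation held at most 2 reads in a library, up to 0.216% and 0.73% of the reads of the gene beside them. Those at Ccnd2 held at most 18 reads, up to 0.196%.

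Of 13 chromosomal neighbours of Cdkn2a, Cdkn2b and Cdkn1c, 11 were tested. With medium 1 rose and 1 fell in proximal organoids with either guide, 1 rose and 2 fell in distal Scramble-sgRNA and 1 rose and 3 fell in distal Cdx2-sgRNA organoids. In proximal Scramble-sgRNA and in distal organoids with Scramble-sgRNA and Cdx2-sgRNA these are 18.2%, 27.3% and 36.4% of the neighbours tested, near the 17%, 26.4% and 33.1% of all genes. The share in proximal Cdx2-sgRNA organoids is 18.2%, against 6.40% of all genes. The gene that rose in all 4, singled out after its values were seen, was Slc22a18, in the imprinted domain of Cdkn1c, with log2 values of 2.46 and 1.29 in proximal and of 2.31 and 2.50 in distal organoids with Scramble-sgRNA and Cdx2-sgRNA. It was also the gene that fell with Cdx2-sgRNA in proximal WENR-minus organoids (log2 -1.36, SE 0.32, adjusted p = 0.00856). The largest fall with medium in all 4 was that of Ascl2, a stem cell factor of the same domain. Its log2 values with Scramble-sgRNA and Cdx2-sgRNA were -3.53 and -4.19 in proximal and -3.51 and -6.92 in distal organoids. The distal Cdx2-sgRNA WENR-minus libraries held Ascl2 at 0 and 0.0836 CPM, below the floor of 3 reads, so -6.92 gives only the direction of that change. With the guide, 2 rose and 1 fell in proximal WENR-minus (Mtap, next to Cdkn2a, most, log2 1.71), 1 rose in proximal WENR-plus (Cd81, log2 1.31) and edgeR called none in distal organoids, with 1 at an unadjusted p under 0.05 in WENR-minus. Of all genes, the guide calls were 21.2% in proximal WENR-minus and 15.9% in proximal WENR-plus. In distal organoids they were 5.25% in WENR-minus and 0.262% in WENR-plus. The counts of neighbours are thus near or below the background.

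The genes whose log2 CPM followed each of the 10 most closely over the 16 libraries are given with Pearson's r as a description, since the libraries share groups and medium. They were Mpp5 (0.992), Ticam1 (0.986) and Foxo3 (0.986) for Cdkn1a, Dgka (0.987), Gpt (0.987) and Ipmk (0.982) for Cdkn1c, and Capzb (0.987), Nkiras2 (0.977) and Msmo1 (0.975) for Cdkn2b. For Cdkn2c they were Dsn1 (0.977), Dbf4 (0.976) and Ccnf (0.975), and for Cdkn1b Dock6 (0.932), Rnf167 (0.929) and Rdh5 (0.916). Ccnd1 was followed by Flna (0.942), Epha4 (0.941) and Gm49760 (0.936), Ccnd2 by Agk (0.958), Tox (0.957) and Rab15 (0.946), and Ccnd3 by Wdsub1 (0.875), Epb42 (0.841) and Lrrc58 (0.836). The loosest partners were Ggcx (0.857), Tubb6 (0.855) and Gm4813 (0.852) for Cdkn2a and Pqlc3 (0.773), Dnajc8 (0.739) and Csrnp2 (0.734) for Cdkn2d.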

How the data were processed

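RNA was read in 16 libraries of 8 groups. Per the labels and methods, stranded total RNA libraries were sequenced in pairs and the authors quantified transcripts with Salmon 1.1.0 (library type found automatically, GENCODE vM23, mm10) and ran DESeq2. Their deposited tables hold, for every transcript, the estimated count, not scaled between libraries, and TPM, which the authors' Salmon run computed within each library. Of 140748 transcripts 139864 matched GENCODE vM21 (GRCm38), an earlier release, and were summed to genes. The other 884 held 0.257 to 0.509% of the reads of a library and were left out.

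Sums were rounded and tested in R 4.3.3 with edgeR 4.0.16: filterByExpr, TMM, 1 coefficient per group over all 16 libraries (glmQLFit and glmQLFTest), 17 contrasts, and Benjamini-Hochberg adjustment within each over all 15289 genes. The log2 fold changes use a prior count of 0.125, and each SE was obtained from the fold change and its F statistic. CPM values are TMM-scaled. TPM was summed per gene. At 3 reads or fewer a level was taken as at the floor, and such limits cover counting error only. Code was tested on simulated data.

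Reads of mitochondrial rRNA made up 15.4 to 28.0% of the libraries. Alternatives were RLE scaling, DESeq2 1.42.0, other filters, length-scaled counts, no mitochondrial genes, only the libraries of a contrast, the adjusted p alone, the replicate number as a block, and each library left out. Same-numbered deviations from the group means correlated at 0.281 to 0.589 in the 4 pairs of groups that share a culture and differ in medium, and at -0.059 to 0.189 in the other 24. The numbers were taken to pair the libraries because the methods name 2 mice.

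The 10 genes, the lists and the tests were chosen with earlier results of these data known. Named are Cdx2, the 10 genes, the 3 genes closest in pattern to each, and from the lists (CDKs and cyclins, Rb and E2F, regulators of CDKs, p53 and Polycomb, proliferation markers, chromosomal neighbours) the called gene with the largest change and genes a result turns on. Promoters came from RefSeq, which gave a window of at least 216 bases outside annotated exons for 5 of the 10 genes.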

Additional observations from a re-analysis of the deposited data

Results flagged for a closer look

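In 4 tests of a difference between effects a gene was called, each with 2 libraries per group. The effect of Cdx2-sgRNA in WENR-minus medium differed between proximal and distal organoids for Cdkn1a (-1.60 on the log2 scale) and Cdkn1c (-4.19), where Cdkn1a had log2 fold changes of -0.94 in proximal and 0.66 in distal organoids, neither called, and Cdkn1c was lower in proximal (-3.05) and higher in distal organoids (1.14). The effect of WENR-minus in proximal organoids differed between Cdx2-sgRNA and Scramble-sgRNA for Cdkn1a (-1.31) and Cdkn1c (-2.41), both with the smaller rise under Cdx2-sgRNA. These tests share the proximal WENR-minus libraries and are not independent of each other.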

How the results depend on the processing

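Of 170 pairs of a gene and a contrast 37 were called, 25 of these kept the call in every alternative run and 30 in all 9 alternatives that used every library. No called value changed sign, and among 2386 values under the alternatives 108 changed sign with neither value called. The cause was not tested for any of the counts that follow. The number called in the guide comparisons went from 5 to 8 with DESeq2 and 9 without a low-count filter, and in the difference contrasts from 4 to 15 without that filter and 2 with only the libraries of a contrast. By contrast, the medium effect in proximal Cdx2-sgRNA organoids went from 0 to 1 with DESeq2, 2 without filter and 1 with the replicate block. The guide effect went from 3 to 5 without filter in proximal WENR-minus, from 1 to 3 with DESeq2, 0 with length-scaled counts, 2 without filter and 2 with the block in proximal WENR-plus, and from 0 to 1 without filter in distal WENR-plus. The region effect in Cdx2-sgRNA WENR-plus went from 2 to 1 with DESeq2, RLE, at least 10 counts in every library, length-scaled counts, no mitochondrial genes or no filter, and to 0 with only its libraries. The guide effect difference went from 2 to 5 in WENR-minus and from 0 to 1 in WENR-plus without filter. The medium effect difference went from 2 to 4 with DESeq2, at least 10 counts or no filter and to 0 with only its libraries in proximal organoids, and from 0 to 2 without filter in distal ones. The region effect difference went from 0 to 3 without filter.

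With each library left out in turn the number called was 18 to 21 over the medium comparisons (4 to 5 proximal Scramble-sgRNA, 0 to 2 proximal Cdx2-sgRNA, 6 to 6 distal Scramble-sgRNA, 6 to 7 distal Cdx2-sgRNA), 4 to 6 over the guide comparisons (2 to 4 proximal WENR-minus, 0 to 1 proximal WENR-plus, 0 to 0 distal WENR-minus), 7 to 10 over the region comparisons (1 to 3 Scramble-sgRNA WENR-minus, 4 to 6 and 0 to 2 Cdx2-sgRNA WENR-minus and WENR-plus) and 2 to 5 over the difference contrasts (2 to 3 guide effect in WENR-minus, 0 to 3 proximal medium effect), and 0 in the contrasts not named. The lone library of a group was then assumed to vary like the others. The replicate number as a block, a single term over all 16 libraries, changed 7 calls, given beside the results, and no other. It does not model the pairing of the media within each culture, which no fit included. The tests of medium thus treat libraries of the same culture as independent. Over all genes, call counts moved by more than 1.5 times under 6 settings. With DESeq2 they went from 40 to 176 (distal guide effect in WENR-plus), 267 to 538 (region effect in Scramble-sgRNA WENR-plus) and, in the difference contrasts, 762 to 1228 (guide effect in WENR-plus), 550 to 1166 (proximal medium effect), 0 to 120 (distal medium effect) and 11 to 150 (region effect). Without filter these 6 went to 586, 1039, 1863, 1596, 354 and 454, the distal guide effect in WENR-minus from 802 to 1531, the proximal Cdx2-sgRNA medium effect from 978 to 1482 and the region effect in Scramble-sgRNA WENR-minus from 929 to 1619. With at least 10 counts in every library, which leaves 10202 genes, they went from 40 to 17, 267 to 107, 762 to 426, 0 to 4 and 929 to 585 in the contrasts already named, from 3239 to 1790 and 2427 to 1258 for the proximal guide effect in WENR-minus and WENR-plus, and from 5291 to 3366 and 2595 to 1317 for the region effect in Cdx2-sgRNA WENR-minus and WENR-plus. With only the libraries of a contrast, 978 went to 0, 40 to 4, 550 to 82 and 11 to 3, with the block 40 to 65, 550 to 829, 0 to 8 and 11 to 20, and with length-scaled counts 550 to 363. By TPM, p19Arf exceeded p16Ink4a in the same 15 libraries. Cdkn2a and, in WENR-minus, Cdkn2c are limited by their few reads.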
